A study of Mus musculus with 2 samples.

Results

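Binding of LRPPRC to the cytochrome b mRNA, mt-Cytb (ENSMUSG00000064370.1), was examined in mouse embryonic fibroblasts (MEFs). Members were the sites of the experimental library that lie on the plus strand of the mitochondrial genome and share at least 1 nt with the gene body of mt-Cytb in GENCODE, at chrM:14145-15288 in mm10. This rule found 5 of the 39 plus-strand mitochondrial sites and of the 552 sites in the whole list. The rule uses position alone and no measured value.

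The fibroblasts were from Lrpprc-FLAG transgenic mice, and per the labels the control and the experimental culture alike received 2 µg/ml doxycycline for 72 h. The methods of the study give this dose and time for inducing LRPPRC-FLAG, without saying which of its cell lines were induced. The series has 1 experimental and 1 control PAR-CLIP library, and the labels do not say how the control differed. Sites of the control library were not analysed here, so no site has a background value beside it. The list holds no expression values, so neither the cell type nor the tagged protein could be checked in it. With 1 library there is no spread between replicates, and every value below describes this list of sites and carries no test.

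Cytochrome b is the subunit of respiratory complex III that is made inside mitochondria, and it holds the haem groups through which electrons pass between the oxidation and the reduction of quinone. Its mRNA is cut out of a long transcript and is then polyadenylated. Most mitochondrial mRNAs are cut at flanking tRNAs. For mt-Cytb a tRNA gene on the same strand adjoins the 3′ end, whereas the tRNA gene just upstream lies on the other strand. LRPPRC is a pentatricopeptide repeat protein that is known to bind mitochondrial mRNAs together with SLIRP and to maintain their poly(A) tails. In PAR-CLIP, cells incorporate 4-thiouridine into new RNA, ultraviolet light joins it to a bound protein, and the joined base is later read as C in place of T. A site in this list is a run of bases around such changes. The list gives its position and width, but no read depth or probability for any single site, so an uncovered base can be unbound or too thinly read to pass the caller.

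LRPPRC sites on the mt-Cytb mRNA ran from its first codon to codon 303, in 5 separate sites, and its last 234 nt held no site. The sites covered 610 of its 1144 bases, or 53.3% (95% Wilson interval 50.4 to 56.2%, for counting error only, although neighbouring bases of a site are called together). Of the 381 codons, 201 lay wholly inside a site, 176 wholly outside and 4 across an edge. The covered share was 27.2% when only the sites at or above the median width of the mitochondrial sites were kept, which leaves 2 of the 5. On the strand opposite the gene 0 bases lay in a site.

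The sequences that carry this pattern are the site over the start of the gene, the last site, the uncovered 3′ end and the junction with the next tRNA. They were read from the GRCm38 (mm10) mitochondrial sequence on the plus strand, with U for T. The first site lay at chrM:14086-14261, and capitals mark the first codon of mt-Cytb, 59 nt into the site.
First site: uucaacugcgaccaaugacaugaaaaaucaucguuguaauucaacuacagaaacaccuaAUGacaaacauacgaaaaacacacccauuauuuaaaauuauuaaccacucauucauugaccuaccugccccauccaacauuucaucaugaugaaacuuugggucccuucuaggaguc
The last site (chrM:14967-15054) and the uncovered 3′ end that follows it (chrM:15055-15288) are shown with each U in capitals, since only a U can be crosslinked in this assay.
Last site: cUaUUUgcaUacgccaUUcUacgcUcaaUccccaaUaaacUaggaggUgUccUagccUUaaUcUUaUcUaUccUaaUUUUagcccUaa
Uncovered 3′ end: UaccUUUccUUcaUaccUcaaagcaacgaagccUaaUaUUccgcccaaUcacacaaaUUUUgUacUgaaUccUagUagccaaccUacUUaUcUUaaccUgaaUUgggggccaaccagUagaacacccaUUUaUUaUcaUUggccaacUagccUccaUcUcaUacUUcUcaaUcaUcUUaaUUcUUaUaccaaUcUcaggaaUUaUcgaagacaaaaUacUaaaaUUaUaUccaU
The junction (chrM:15259-15318) holds the last 30 bases of mt-Cytb and the first 30 of mt-Tt, the threonine tRNA, and the capital marks the last base of mt-Cytb. This base follows the last whole codon and is the U that polyadenylation completes to a stop codon.
Junction: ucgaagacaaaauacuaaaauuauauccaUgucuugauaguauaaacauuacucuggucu

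**Figure D1:**
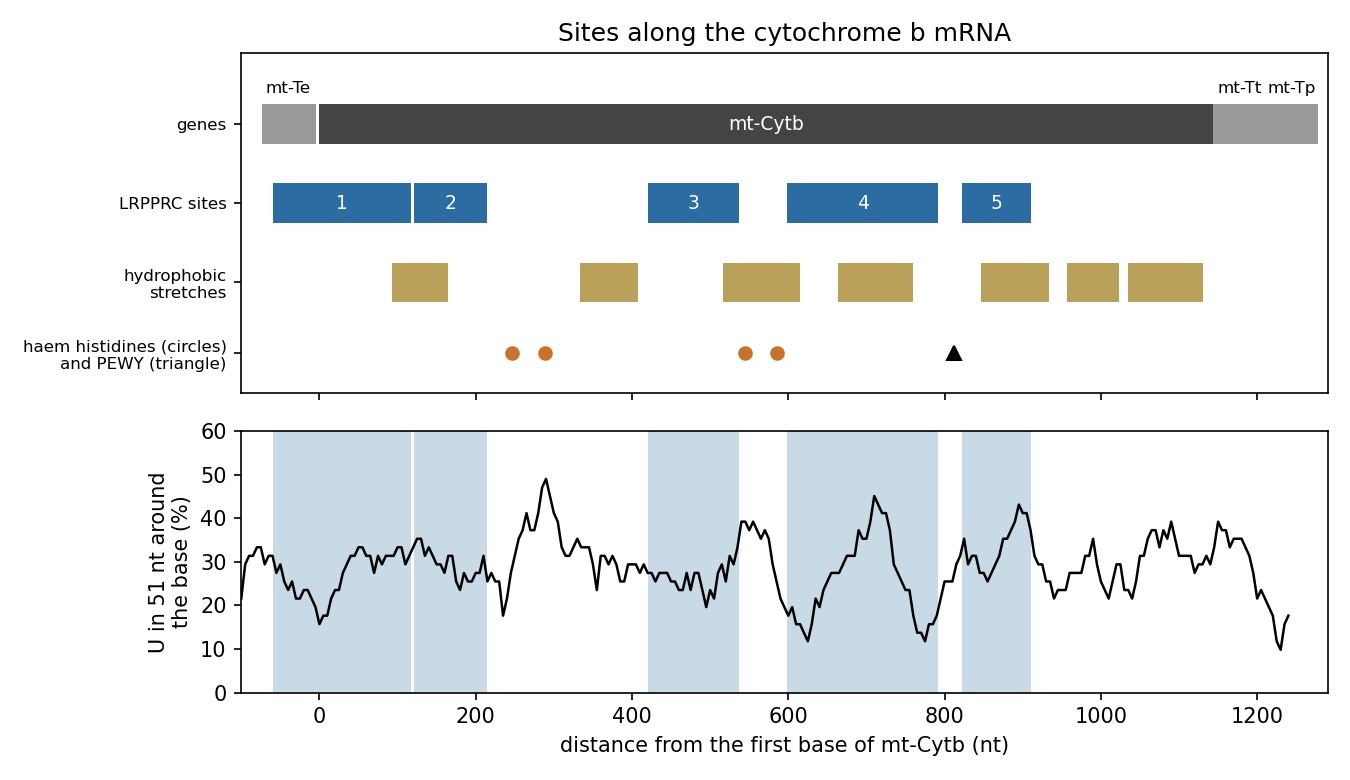
Map of mt-Cytb against the distance from its first base (nt), with the flanking tRNA genes, the 5 sites, the hydrophobic stretches of the encoded protein, the haem histidines (circles) and the PEWY tetrapeptide (triangle) above, and the share of U in 51 nt around each base (%) below, where shading marks the sites. The circles and the triangle all lie in uncovered stretches, which wholly hold 176 of the 381 codons, and no site lies in the last 234 nt of the gene. Other functional residues are not marked.

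The first site was 176 nt wide and covered codons 1 to 39, which make up the amino-terminal end of cytochrome b. It was the only one of the 5 to reach outside the gene. It began 59 nt upstream, with 54 bases opposite mt-Te, the glutamate tRNA encoded on the other strand (chrM:14071-14139), and with the 5 bases that separate mt-Te from mt-Cytb. These 54 bases face 78.3% of mt-Te. The part upstream of the gene was 40.7% A and 23.7% U, with 14 U in all, and the part inside the gene had 33 U in 117 bases (28.2%). The nearest site upstream ended at 14010, 75 nt before the first site.

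The second site followed after 4 nt, at chrM:14266-14359. It was 94 nt wide and encoded residues 42 to 71. Its 28 U made up 29.8% of its bases, and its longest run without U was 8 bases. The gap between the first and second sites is printed below with its uncovered bases in capitals (chrM:14234-14293), because it is the shortest uncovered stretch in the gene.
Gap between the first and second sites: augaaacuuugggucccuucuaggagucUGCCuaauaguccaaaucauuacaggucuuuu
The gap holds 1 U. A list that joined neighbouring sites would show both as 1 site over the first 215 bases of the gene. Gaps of 10 nt or fewer occurred 4 times among the 38 gaps between plus-strand mitochondrial sites, of which the median was 118.5 nt. The others lay in mt-Atp8/Atp6 (4 nt), mt-Nd4l/Nd4 (5 nt) and the 16S rRNA (6 nt).

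A stretch of 205 nt without a site followed (chrM:14360-14564), with codons 73 to 140 wholly in it. It contained 66 U, or 32.2% of its bases. Its mean predicted unpaired probability was 0.520, the lowest among the sites and the uncovered stretches of at least 30 nt in this gene. This probability was calculated from sequence with RNAplfold and measures nothing in the cells. Within this stretch, the share of U in 51 nt reached 49.0%, at 290 nt from the first base of the gene, the highest along the profile.

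The third site (chrM:14565-14681, 117 nt) encoded residues 141 to 179 and was the richest of the 5 in G, with 18.8% against 9.28 to 11.4% in the others. It had 30 U (25.6%). Its mean predicted unpaired probability of 0.532 was the lowest of the 5 sites, and the others ranged from 0.671 to 0.698. The uncovered stretch before it, at 0.520, was closest to it.

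The fourth site (chrM:14743-14936) was the widest in the gene, at 194 nt, and ranked 15 by width among the 39 plus-strand mitochondrial sites. It encoded residues 201 to 264 and held the lowest share of U of the 5 sites (48 U, 24.7%) and the highest share of A (38.1%). Its longest run without U was 17 bases. Before it lay 61 uncovered bases with 36.1% U (chrM:14682-14742), the highest U share of any stretch of at least 30 nt in the gene, and after it lay 30 uncovered bases with 26.7% U (chrM:14937-14966).

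Site 5 (chrM:14967-15054) was 88 nt wide, the narrowest in the gene. It had the highest U share of the sites, 33.0% (29 U), and its longest run without U was 6 bases. Its whole codons are 275 to 303. At the second codon position 55.2% of its bases were U, the position at which U encodes the large hydrophobic residues, against 35.9 to 40.6% in the other 4 sites. Its end lay 234 nt from the last base of the gene and from the first base of mt-Tt, which adjoins mt-Cytb with 0 bases between.

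The 234 bases after site 5 hold codons 305 to 381 and 69 U (29.5%), with no run longer than 15 bases without U. Their mean predicted unpaired probability was 0.647, within the range of the sites. Both values lay within the ranges of the 5 sites. mt-Tt (chrM:15289-15355) also had 0 covered bases, as did the plus strand opposite mt-Tp, the proline tRNA (chrM:15356-15422). Read around the circular genome, the next plus-strand site began at 908 in the 12S rRNA, 2152 nt after the end of site 5. Together with the stretch of 205 nt, the uncovered 3′ end held 82.2% of the 534 uncovered bases of the gene.

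Position against the encoded protein was examined next. Cytochrome b binds its pair of haems through 4 histidines, which stand in pairs 14 residues apart. A search of the translated frame for histidines with this spacing returned residues 54 and 68, 83 and 97, and 182 and 196, of which the last 4 are the haem ligands. Codons 83 and 97 lay in the uncovered stretch of 205 nt and codons 182 and 196 in that of 61 nt. Thus 0 of the 4 ligand codons were in a site, whereas 52.8% of all 381 codons were wholly in one. Each pair lies within a single uncovered stretch, so the 4 codons are not separate placements. Codons 54 and 68, which encode no haem ligand, were both in the second site. Over all 13 histidine codons, 6 were wholly covered. The PEWY tetrapeptide, a conserved element of the site where quinol is oxidised, is encoded at residues 270 to 273, in the uncovered stretch of 30 nt between sites 4 and 5. These positions are a description, and no test was made of them. Other functional residues of cytochrome b were not mapped, so the positions do not show where its functional codons lie in general.

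Hydrophobic stretches of the protein, which largely correspond to its membrane helices, were found with a 19-residue window of mean Kyte-Doolittle hydropathy of at least 1.6. There were 7, with 197 residues in all. The stretch at residues 222 to 253 was wholly covered, within the fourth site, and that at residues 32 to 55 was 94.4% covered, by the first and second sites. The stretches at residues 112 to 136, 320 to 341 and 346 to 377 had 0 covered bases. In total 45.0% of the 591 bases for hydrophobic stretches were in a site, against 62.3% of the 552 bases of the other codons. The stretches were not matched to known helices, and a membrane helix below the limit of 1.6 counts here among the other codons.

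The base content of the sites was then compared with that of the uncovered bases of the same mRNA. The sites had 27.5% U and the uncovered bases 31.1% U, a difference of -3.55 percentage points (95% interval -8.83 to 1.73, for counting error only). The interval includes 0 and reaches 1.73 points more U in the sites. By codon position, the U share in sites and in uncovered bases was 23.6% and 27.9% at the first, 40.2% and 45.8% at the second, and 18.7% and 19.7% at the third. A made up 33.4% of site bases and 29.8% of uncovered bases. The corresponding shares were 27.2% and 26.6% for C and 11.8% and 12.5% for G. Predicted unpaired probability averaged 0.657 in the sites and 0.607 outside them, a difference of 0.0501, for which no error was available because these are calculated values and not counts. Without the widest site the difference was 0.0130.

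**Figure D2:**
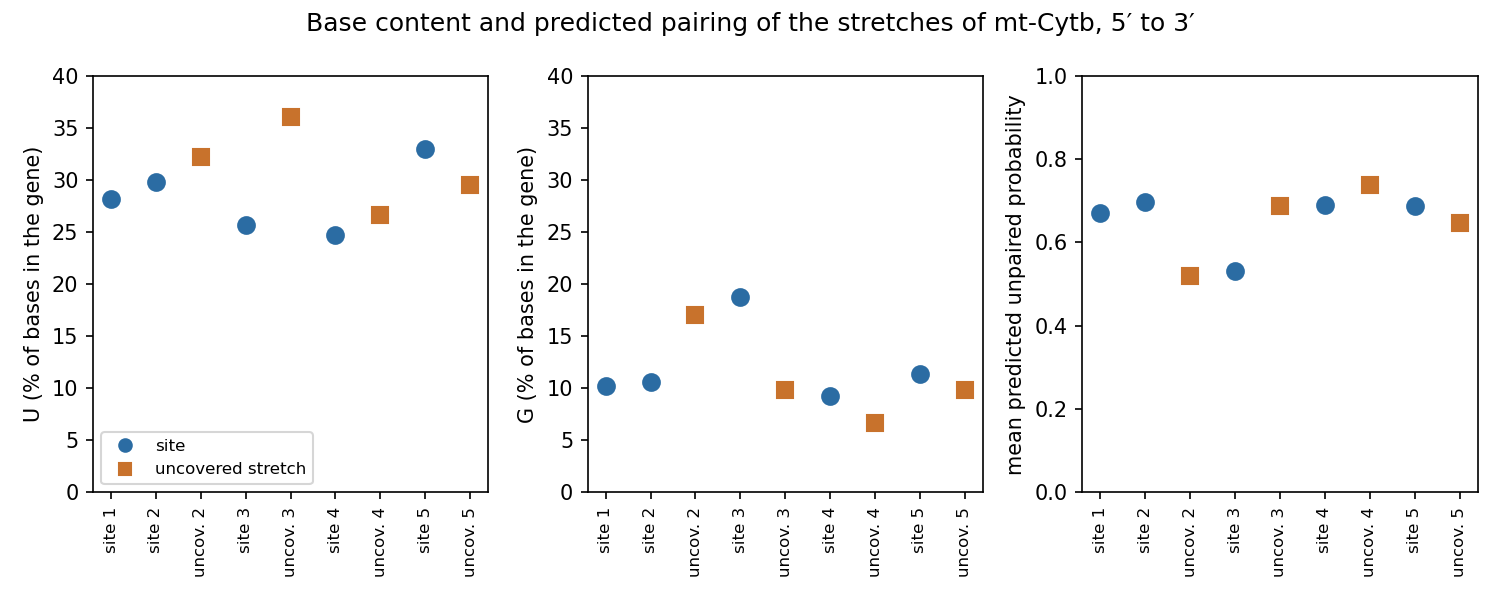
Share of U (left, %), share of G (middle, %) and mean predicted unpaired probability (right) of the 5 sites (circles) and the 4 uncovered stretches of at least 30 nt (squares) of mt-Cytb in order from 5′ to 3′. Sites and uncovered stretches overlap in all 3 measures, and the lowest probabilities are 0.520 in uncovered stretch 2 and 0.532 in site 3.

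Exact words common to the 5 sites were sought. How many would be expected in stretches of these lengths was not calculated, and exact words cannot show or exclude a looser shared motif. Of all words of 4 nt, 4 occurred in the bases that each of the 5 sites had inside the gene, so without the upstream part of the first site, each with at least 1 U, and each of the 4 also occurred in at least 2 of the 4 uncovered stretches of 30 nt or more. The largest contrast in density among them was that of UUCU, with 1.18 per 100 positions in these site bases (7 in all) and 0.578 in the uncovered bases (3 in all). The word AUUU was found 8 times in the sites and 8 times outside them. The others, CAUA with 8 and 5 occurrences and then CCAU with 7 and 6, lay between. The edges of the sites were also read. The first base was U in 4 of the 5 sites and the last base in 0, against 15 (38.5%) and 8 (20.5%) of all 39 plus-strand mitochondrial sites, which include these 5.

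The pattern in mt-Cytb was set beside that of the other 9 heavy-strand-encoded mRNAs, those whose sequence is read on the plus strand, with mt-Atp8 and mt-Atp6 joined and mt-Nd4l and mt-Nd4 joined because their frames overlap. The covered share of mt-Cytb ranked 7 of 10, below a median of 77.4% for the others. Its neighbours in the order were mt-Co3, a subunit mRNA of cytochrome c oxidase, with 63.1% (interval 59.7 to 66.4%), and mt-Nd3, of complex I, with 43.4% (38.3 to 48.6%). Neither interval overlapped that of mt-Cytb, but the intervals take each base as independent. The coverage comes from 5 sites in mt-Cytb, 3 in mt-Co3 and 2 in mt-Nd3, so the intervals cannot order these mRNAs. In addition, 1 library gives no spread between samples. The mRNAs of mt-Co1 (41.8%) and mt-Nd5 (38.3%) were also below mt-Cytb. Of all mRNA bases 10.6% belong to mt-Cytb, and of all covered mRNA bases 8.98%.

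mt-Cytb had 4.37 sites per 1000 bases, a density exceeded by 1 of the other 9, mt-Nd3 with 5.75, and the median of the others was 2.998. Each site covered 122 bases of the gene on average, against a median of 260.8 in the others. The value was lower in mt-Nd5 (116.5) and mt-Nd3 (75.5) and highest in mt-Co2 (530), which has 1 site. The median width of the 5 sites was 117 nt, and that of all 39 plus-strand sites, these included, was 161 nt.

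**Figure D3:**
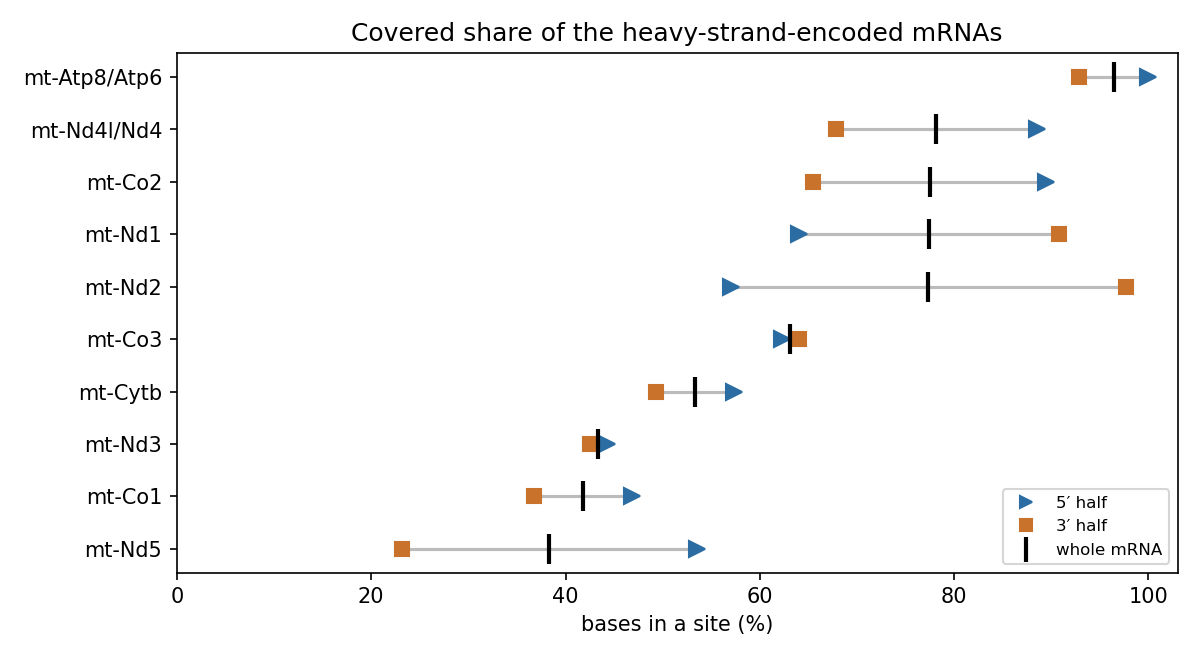
Share of bases in a site (%) before the midpoint (triangles), after the midpoint (squares) and the whole (bars) of each heavy-strand-encoded mRNA, ordered by the whole. mt-Cytb lies seventh, with 57.3% before its midpoint and 49.3% after it.

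Before the midpoint of mt-Cytb 57.3% of the bases were covered and after it 49.3%, a difference of 8.04 percentage points. Its 95% interval of 2.26 to 13.7 is for counting error only and takes the bases of a site as independent. With only the wider sites, the direction turned to -13.5 points, and without the widest site it was 42.0 points. Among the other mRNAs, 6 had more coverage before the midpoint and 3 after it, from 30.4 points in mt-Nd5 to -40.7 in mt-Nd2.

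At the start of the mRNAs, the first codon was wholly covered in 6 of the 10, and all of the first 100 bases of mt-Cytb were in a site, as they were in mt-Nd2, mt-Atp8/Atp6, mt-Nd4l/Nd4 and mt-Nd5. The remaining mRNAs had 28 to 85 of these bases covered. A site reached upstream of the first base in 4 of the 10. It did so by 59 nt in mt-Cytb and by at most 32 nt in the others, in mt-Nd2. In mt-Cytb 54 of these bases lie opposite mt-Te, which is encoded on the other strand. Which RNA the upstream bases belong to was not examined, and the kind of upstream sequence was not compared between the mRNAs.

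At the other end, the last covered base lay 234 nt, or 20.5% of the length, before the end of mt-Cytb. In the other 9 this distance, taken to the end of the annotated gene, was 0 to 118 nt with a median of 44 nt. The next longest was that of mt-Co2 (118 nt). The 0 was that of mt-Nd5, where the site over the last base (13565) ran on to 14010, beyond the annotated gene. The distance to the end of the mt-Nd5 mRNA is therefore not known here. With only the wider sites the distance was 352 nt in mt-Cytb, and it was not calculated for the other 9 under that filter. As a share of length, the highest of the others was 17.8%, in mt-Nd3. In a window of 234 nt before the last base, which was set to the length of the uncovered end of mt-Cytb and so fixes its value at 0, the other 9 had 74 to 222 covered bases. The mt-Cytb window had 29.5% U, within the 26.1 to 36.3% of the others, and a mean predicted unpaired probability of 0.647, within their 0.542 to 0.839. Longer uncovered runs were found inside the frames of mt-Co1 (769 nt) and mt-Nd5 (684 nt), but not at the end of an mRNA. An incomplete stop codon was shared by 3 of the 10 mRNAs, mt-Cytb, mt-Co3 and mt-Nd4l/Nd4, and in these others the last covered base lay 55 and 18 nt from the end.

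**Figure D4:**
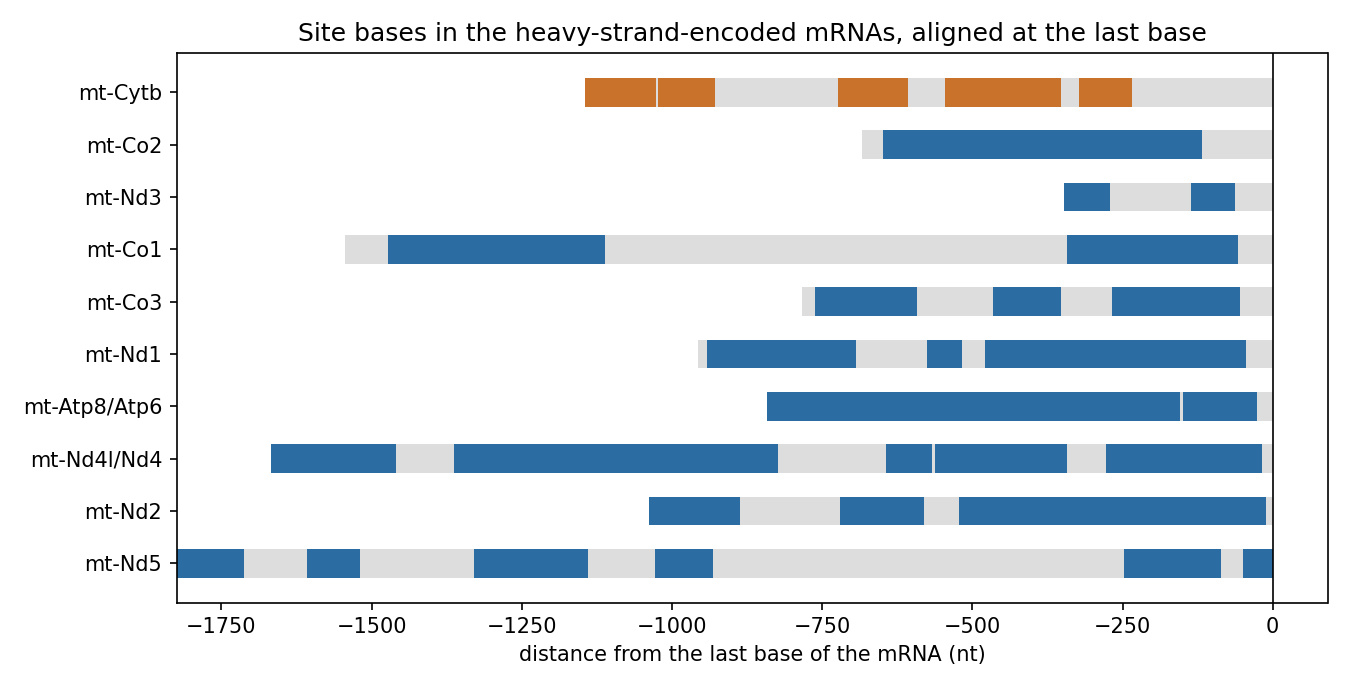
Site bases (coloured) and uncovered bases (grey) of the 10 heavy-strand-encoded mRNAs against the distance from the last base (nt), ordered by the length of the uncovered end. Bars are cut at the ends of the annotated genes. In mt-Cytb, at the top, the last site ends 234 nt before the last base. In the other 9 the last covered base of the gene lies within 118 nt of its end.

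In base content mt-Cytb was within the range of the others. Its sites had 27.5% U, above those of mt-Co2 (26.4%) and below those of the other 8. The difference in U between sites and uncovered bases ran from -9.56 points in mt-Nd1 to 7.64 in mt-Nd3, and was below 0 in 5 of the other 9. Taken as 1 sequence, the other mRNAs had 29.1% U in their sites and 29.99% outside them. C was higher in sites than outside in 8 of the other 9, by a median of 4.51 points, and by 0.621 points in mt-Cytb. G was lower in sites in 7 of the other 9, with a median of -3.19 points, and differed by -0.744 points in mt-Cytb. Predicted unpaired probability was higher in sites than outside in 8 of the other 9, from -0.00161 in mt-Co1 to 0.170 in mt-Nd4l/Nd4, and the difference of 0.0501 in mt-Cytb lay within this range.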

How the data were processed

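PAR-CLIP of LRPPRC-FLAG was carried out by the authors in MEFs, with 1 experimental and 1 control library. Per the methods of the study and the submitters' processing notes, PCR duplicates were removed by random bases in the adapter, reads were trimmed with cutadapt 1.10, and Bowtie 1.12 placed them on mm10 after masking of nuclear copies of mitochondrial DNA, with 1 alignment reported per read. The authors called crosslinked regions with BMix, whose version is not given in the sources used here. Per the methods it was run at its default settings, which include a minimum coverage and a minimum probability of crosslinking. The deposited list holds positions only. The score deposited by the authors was 0 in every line, so depth and precision per site are unknown beyond these minimum settings of the caller. Sequence poor in U could be missed by such a caller, which was not tested. In mt-Cytb the U share was 27.5% in the sites and 31.1% in the uncovered bases.

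Starts were converted to 1-based positions. Sites were assigned to mt-Cytb at an overlap of 1 nt, with genes of GENCODE vM21 and the RefSeq copy of GRCm38, whose mitochondrial sequence is 16299 nt long. RefSeq gave the same boundaries for mt-Cytb. The frame was translated with the vertebrate mitochondrial code. RNAplfold 2.7.2 was run on the plus strand (windows of 150 nt, pairs up to 100 nt apart) without regard to transcript cleavage. Intervals are 95% Wilson intervals, or for differences in shares are built from them, and predicted probabilities have none. All intervals take each base as independent, although neighbouring bases of a site are called together, so they are too narrow for comparing genes or parts of genes. Covered bases were tested on simulated data, with 0 of 200 patterns counted wrongly. Python 3.11.15, NumPy 2.4.6, SciPy 1.17.1 and matplotlib 3.10.9 were used.

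Every site and uncovered stretch of mt-Cytb was named, and other mRNAs only for the same measures. The gene and the comparisons were chosen with earlier results of these data known. The first and last bases of sites, the words and the window before the last base were added after the sites were seen.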

Additional observations from a re-analysis of the deposited data

Results flagged for a closer look

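The list also held 504 sites outside the mitochondrial genome, which no comparison here used and for which no control value was available in this work. Of the 492 on assembled chromosomes, 0 shared a word of 20 nt with mt-Cytb on either strand.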

How the results depend on the processing

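Of 29 alternative values, 20 kept the reported direction and moved by less than the counting interval (for counts, ranks, distances and predicted probabilities, by at most 1.5 times), 8 moved and 1 changed direction. A minimum width of 147.5 nt, the median of the mitochondrial sites, left 2 of the 5 sites by construction. The covered share then became 27.2%, the distance from the last covered base to the end 352 nt, and the difference in coverage before and after the midpoint -13.5 points, the opposite direction. Trimming 10 nt from both ends of each site gave a share of 45.5%, and 50-nt windows touched by any site gave 69.6% (16 of 23 windows). Without the widest site the share was 36.4% and the difference about the midpoint 42.0 points, and the difference in predicted unpaired probability fell to 0.0130. The rank by covered share was 7 or 8 of 10 under the 4 alternatives run for it. The lower U share in sites kept its sign under the 4 run for it, from -0.549 points without the widest site to -4.33 with wider sites only, and the interval of the main value included 0. No paired analysis was possible because the sites of a single library, the experimental one, entered the work. Unknown depth limits every statement on uncovered bases, including the 3′ end of mt-Cytb.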
